A study of Homo sapiens with 4 samples.

Results

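The 8 genes described here carry glucose into the cell and break it down to lactate: SLC2A1, HK2, ALDOA, TPI1, GAPDH, ENO1, PKM and LDHA. They were chosen as a list, with their hg19 gene spans given to the nearest 1 kb, and a peak belonged to a gene where it overlapped the span with 2 kb added on each side. By this rule the full peak lists gave 15 TAF3 peaks of 17887, 14 H3K4me3 peaks of 17975 and 56 RNAPII peaks of 61456. The series mapped TAF3 (part of TFIID, a general transcription factor, with a domain that reads H3K4me3), H3K4me3 (trimethylated lysine 4 of histone H3, a mark of active promoters) and RNAPII (RNA polymerase II) by chromatin immunoprecipitation and sequencing in HCT116 cells, an established human colorectal carcinoma line. There was 1 library for each antibody and 1 input DNA library, all from monolayers fixed with formaldehyde, with no other treatment given in the labels. The TAF3 antiserum was polyclonal, and nothing in the labels names separate cultures. After removal of duplicates 17411155 TAF3, 12560129 H3K4me3 and 16841238 RNAPII tags (sequenced fragment ends) remained, against 19185386 of input. Without replicates there is no test between genes or antibodies. Intervals below are exact 95% Poisson or binomial intervals and cover counting error only. Markers of intestinal identity are not analysed here, so the line was not checked against them.

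Glycolysis turns glucose into pyruvate in the cytosol and yields ATP without oxygen, and lactate dehydrogenase then reduces pyruvate to lactate. Tumour cells often run this pathway at a high rate even where oxygen is present. Many of the genes are known targets of the hypoxia factor HIF, whose binding sites hold the letters ACGTG, and of MYC, which binds the E-box CACGTG. TFIID sits on core promoters and helps to place RNAPII at the start of a gene.

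Every gene of the list carried all 3 signals. In the authors' filtered lists, which hold peaks with more than 5-fold enrichment over input and a false discovery rate under 5%, 8 of 8 genes had an H3K4me3 peak overlapped by both a TAF3 and an RNAPII peak, compared with 80.6% of all H3K4me3 peaks and, read from the TAF3 side, 97.6% of all TAF3 peaks. The genes were counted by window and the background by single peak. Read from the TAF3 side, 8 of 8 is near the share of the whole list and is not particular to these genes. By single peak the H3K4me3 peak at the 5′ edge of the ALDOA span had no filtered TAF3 peak. The windows held 11 filtered TAF3 peaks, 12 H3K4me3 peaks and 26 RNAPII peaks. Fold enrichment, which sets the tags at a summit against those expected there from input, is the authors' own value and comes without an error.

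SLC2A1 encodes the main glucose transporter of many cell types and HK2 the hexokinase that phosphorylates glucose on entry. At SLC2A1, TAF3 reached 55.4-fold with 347 tags (95% interval 311 to 386) at chr1:43422933-43425424, H3K4me3 137-fold with 1335 tags and RNAPII 122-fold with 474 tags. At HK2, TAF3 reached 39.9-fold with 237 tags (208 to 269) at chr2:75060934-75062778, H3K4me3 167-fold with 1051 tags and the overlapping RNAPII peak 38.6-fold with 454 tags. Promoter peak here means the TAF3 peak of highest fold enrichment in the window, or a peak that overlaps it. Its place at a start was not measured. HK2 had the fewest TAF3, H3K4me3 and RNAPII tags among the promoter peaks of the 8 genes, while its H3K4me3 fold enrichment was the third highest. At these promoter peaks the RNAPII tags of SLC2A1 and HK2 differed by less than counting error (ratio 1.04, 95% interval 0.916 to 1.19).

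ALDOA encodes aldolase, which splits the phosphorylated hexose, and TPI1 the isomerase that interconverts the resulting trioses. At ALDOA, TAF3 reached 30.8-fold with 641 tags (592 to 693) at chr16:30075103-30078417, H3K4me3 131-fold with 1855 tags and RNAPII 90.7-fold with 1656 tags. This was the only TAF3 peak of the 8 with a fold enrichment under the list median of 36.1, yet its tags exceeded 98.0% of all filtered TAF3 peaks. At TPI1, TAF3 reached 62.2-fold with 394 tags (356 to 435) at chr12:6976072-6978304, H3K4me3 142-fold with 1247 tags and RNAPII 139-fold with 2670 tags.

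GAPDH encodes the dehydrogenase that oxidises the triose phosphate, and ENO1 the enolase that forms phosphoenolpyruvate. At GAPDH, TAF3 reached 91.6-fold with 800 tags (746 to 857) at chr12:6641094-6645676, H3K4me3 165-fold with 2138 tags and RNAPII 194-fold with 3642 tags. At ENO1, TAF3 reached 138-fold with 761 tags (708 to 817) at chr1:8936434-8939985, H3K4me3 287-fold with 1672 tags and RNAPII 294-fold with 3456 tags. ENO1 ranked 10 among all 25013 filtered RNAPII peaks, 36 among 14298 H3K4me3 peaks and 52 among 11765 TAF3 peaks by fold enrichment. In the single RNAPII peak that overlaps TAF3, the tags of GAPDH exceeded those of ENO1 by a ratio of 1.05 (1.01 to 1.10). Over all filtered RNAPII peaks of the window ENO1 held more, 4666 tags in 3 peaks against 3642 in 1 at GAPDH. The TAF3 tags of GAPDH and ENO1 did not differ beyond counting error (1.05, 0.951 to 1.16).

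PKM encodes pyruvate kinase, which makes pyruvate and ATP, and LDHA the lactate dehydrogenase subunit that favours lactate formation. PKM had the strongest TAF3 peak of the list, 152-fold with 1020 tags (958 to 1085) at chr15:72520850-72524838, which ranked 17 of 11765. H3K4me3 there was 208-fold with 2127 tags and RNAPII 209.7-fold with 1603 tags. At LDHA, TAF3 reached 82.6-fold with 486 tags (444 to 531) at chr11:18415495-18418289, H3K4me3 155-fold with 1565 tags and RNAPII 182-fold with 1015 tags. In TAF3 tags the order ran PKM, GAPDH, ENO1, ALDOA, LDHA, TPI1, SLC2A1 and HK2, and neighbours in this order differed beyond counting error except GAPDH with ENO1 and TPI1 with SLC2A1 (ratio 1.14, 0.98 to 1.32).

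Ranked by fold enrichment within each list, the median gene stood higher in TAF3 and RNAPII than in H3K4me3. The peak of highest fold enrichment in each window was taken here. HK2 went the other way (73.2% in H3K4me3, 56.8% in TAF3 and 56.1% in RNAPII), and at ALDOA and ENO1 TAF3 stood below H3K4me3. Ranked by tags, the median gene stood above 96.2% of the TAF3 list, 92.2% of the H3K4me3 list and 98.2% of the RNAPII list. By tags per kb it stood above 83.8%, 82.4% and 87.2% in that order. At ALDOA the H3K4me3 peak so taken lies apart from TAF3. With the overlapping peak the H3K4me3 medians were 95.7% by tags and 88.7% per kb, the highest of any antibody per kb. Taking the peak of highest fold enrichment in each window, the median over the 8 genes was 72.4-fold for TAF3, 161-fold for H3K4me3 and 160.6-fold for RNAPII, compared with 36.1-fold for TAF3, 126.1-fold for H3K4me3 and 44.8-fold for RNAPII over all filtered peaks. Fold enrichment above 100 was found at 2 of 8 genes for TAF3 against 2.97% of all filtered TAF3 peaks, at 8 of 8 for H3K4me3 against 64.7%, and at 6 of 8 for RNAPII against 26.5%. By fold enrichment the median gene stood above 88.2% of the TAF3 list, 70.4% of the H3K4me3 list and 91.4% of the RNAPII list. Among the RNAPII peaks that overlap a TAF3 peak, a stronger set with a median of 107-fold, the median gene stood above 81.4%. HK2 stood above 12.1% of that set by its peak of highest fold enrichment, and above 3.33% by its peak at the TAF3 peak. A gene was given its strongest peak while the lists hold every peak, which favours the genes, and no test was made.

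**Figure D1:**
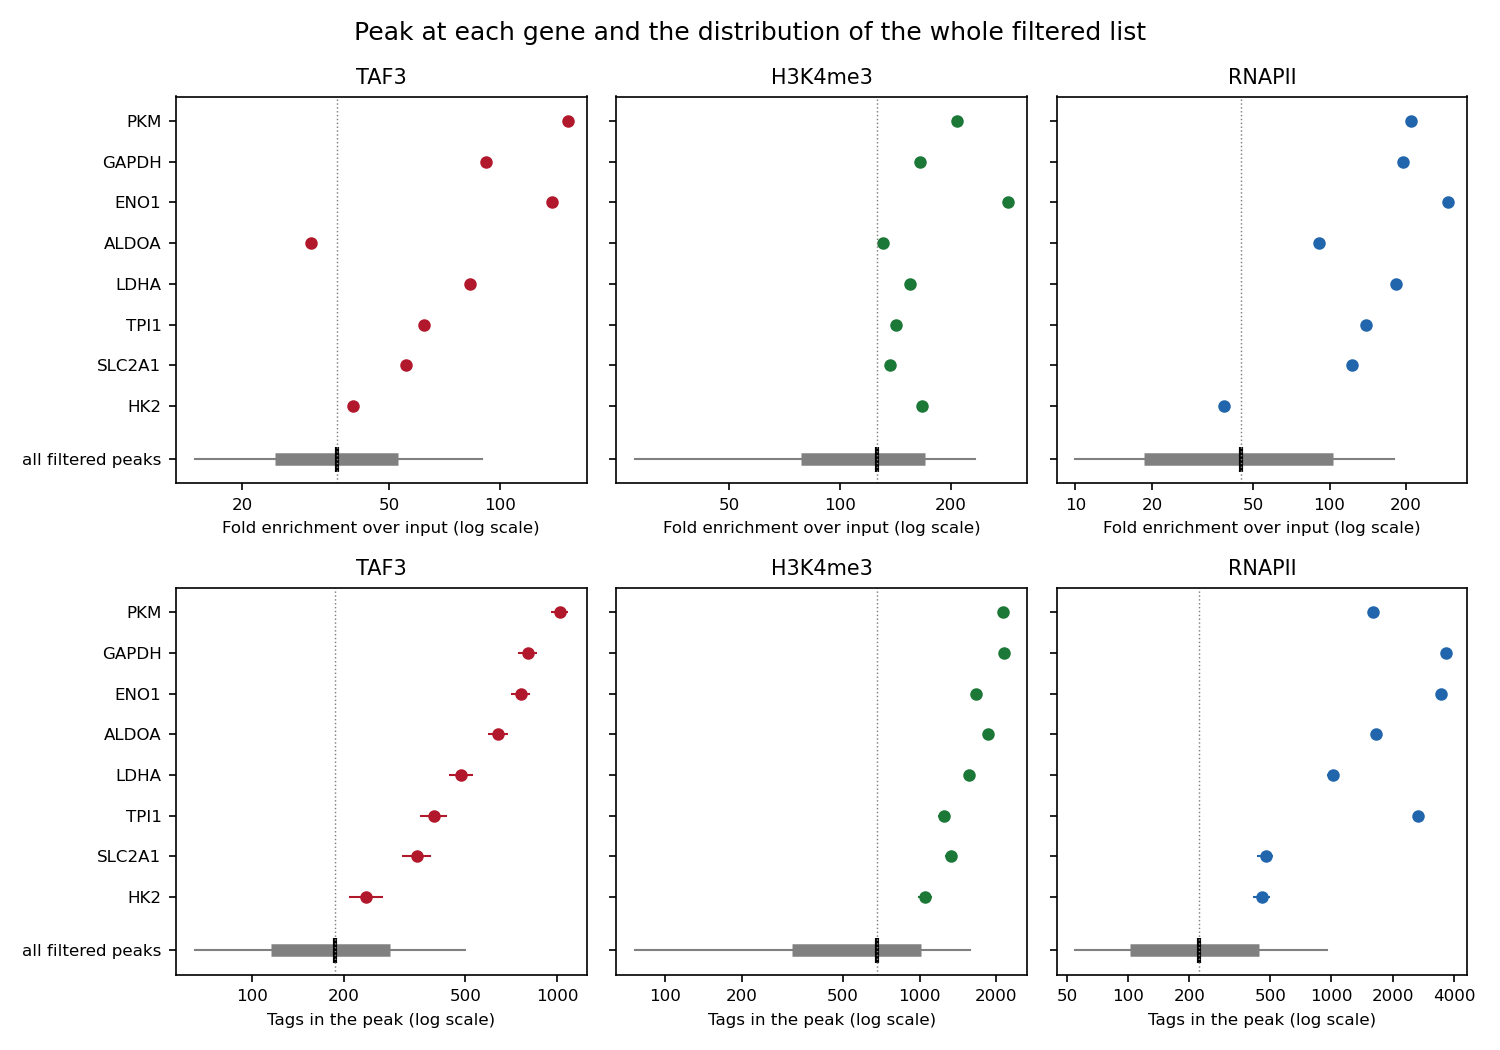
Fold enrichment over input (upper row) and tags per peak (lower row, bars are exact 95% Poisson intervals), both on log axes, for the TAF3 peak of each gene and the H3K4me3 and RNAPII peaks that overlap it. Genes run down the page by TAF3 tags, and the grey bar below them gives the quartiles, the thin line the 5th to 95th percentile and the tick the median of all filtered peaks. All 8 genes lie right of the median in tags of every antibody, while ALDOA in TAF3 and HK2 in RNAPII lie left of it in fold enrichment.

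The GC box letters GGGCGG were present at a promoter of each of the 8 genes. RefSeq promoters (250 bases before to 50 after an annotated start) matched all 8 genes with 13 starts. They are on GRCh38.p14, a later build than the peaks, so the place of a peak relative to a start was not measured. Those shown are ENO1 and PKM with the highest TAF3 enrichment, HK2 with the fewest tags, SLC2A1 with the only TATAAA match, LDHA with E-boxes, and the start of ALDOA that is rich in CpG. Capitals mark a match, on either strand, to the TATA motif TATAAA, the GC box GGGCGG, the motif CCAAT, the E-box CACGTG or the HIF core ACGTG. Every E-box match also holds the HIF core.
ENO1 (GRCh38.p14 chr1:8878637-8878936, minus strand): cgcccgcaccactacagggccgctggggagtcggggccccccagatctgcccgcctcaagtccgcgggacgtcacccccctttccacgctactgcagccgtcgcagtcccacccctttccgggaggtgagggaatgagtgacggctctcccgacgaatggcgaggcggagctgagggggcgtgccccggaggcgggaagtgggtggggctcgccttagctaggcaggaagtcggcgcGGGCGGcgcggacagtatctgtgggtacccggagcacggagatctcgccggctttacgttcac
PKM (GRCh38.p14 chr15:72231141-72231440, minus strand): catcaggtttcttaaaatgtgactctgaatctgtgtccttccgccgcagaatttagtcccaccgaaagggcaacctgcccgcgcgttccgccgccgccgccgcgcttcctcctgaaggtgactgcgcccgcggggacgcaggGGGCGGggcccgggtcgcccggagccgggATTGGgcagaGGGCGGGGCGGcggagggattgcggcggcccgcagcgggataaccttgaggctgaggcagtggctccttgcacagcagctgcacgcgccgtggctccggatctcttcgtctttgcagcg
SLC2A1 (GRCh38.p14 chr1:42958819-42959118, minus strand): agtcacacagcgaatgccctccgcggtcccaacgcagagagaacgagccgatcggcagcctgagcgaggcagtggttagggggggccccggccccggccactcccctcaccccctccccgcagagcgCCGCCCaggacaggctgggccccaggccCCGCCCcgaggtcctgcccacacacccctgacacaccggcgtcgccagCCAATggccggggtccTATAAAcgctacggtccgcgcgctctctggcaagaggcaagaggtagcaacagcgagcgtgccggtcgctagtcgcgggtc
HK2, first start (GRCh38.p14 chr2:74833877-74834176, plus strand): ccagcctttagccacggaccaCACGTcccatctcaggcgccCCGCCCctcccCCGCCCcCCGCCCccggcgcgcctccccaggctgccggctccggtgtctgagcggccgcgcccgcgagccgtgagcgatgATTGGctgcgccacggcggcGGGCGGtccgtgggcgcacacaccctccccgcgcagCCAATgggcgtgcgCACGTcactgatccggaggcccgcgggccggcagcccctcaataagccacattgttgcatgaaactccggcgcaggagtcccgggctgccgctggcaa
LDHA, first start (GRCh38.p14 chr11:18394313-18394612, plus strand): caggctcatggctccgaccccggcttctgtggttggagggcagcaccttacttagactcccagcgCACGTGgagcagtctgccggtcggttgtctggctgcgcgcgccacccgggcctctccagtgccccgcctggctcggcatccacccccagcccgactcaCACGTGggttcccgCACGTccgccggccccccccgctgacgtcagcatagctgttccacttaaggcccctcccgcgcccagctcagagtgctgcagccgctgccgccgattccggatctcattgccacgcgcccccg
ALDOA, start 3 of 3 (GRCh38.p14 chr16:30065510-30065809, plus strand): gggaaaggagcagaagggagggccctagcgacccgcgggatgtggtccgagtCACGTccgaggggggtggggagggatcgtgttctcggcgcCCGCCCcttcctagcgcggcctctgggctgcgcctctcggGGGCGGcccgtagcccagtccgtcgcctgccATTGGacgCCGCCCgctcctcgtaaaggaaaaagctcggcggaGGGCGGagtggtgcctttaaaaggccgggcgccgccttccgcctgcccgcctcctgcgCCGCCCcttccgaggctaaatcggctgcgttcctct

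GGGCGG was present at 10 of 13 starts, compared with 45.0% of all 35116 RefSeq promoters. These starts cover 8 of 8 genes, but a gene with several starts has more places for a match. The background promoters were not matched for CpG content, and its part in these shares was not tested. TATAAA was found at SLC2A1 alone, beginning 31 bases before the start, compared with 11.5% of all promoters. Other forms of the TATA motif were not searched, and 1 of 13 starts is near that background share. CCAAT was present at 4 of 13 starts (PKM, ALDOA, HK2 and SLC2A1) compared with 34.6%, and CACGTG at 4 of 13 (GAPDH, LDHA, ALDOA and HK2) compared with 7.26%. ACGTG was present at 8 of 13 starts compared with 21.4%, from 5 genes (GAPDH, LDHA, TPI1, ALDOA and HK2). Every start of ALDOA and HK2 held it, and starts of 1 gene are not independent. It was absent at ENO1, PKM and SLC2A1. LDHA held 2 E-boxes at its first start and HK2 held 2 at its second. The ratio of observed to expected CpG ran from 0.76 at GAPDH to 0.98 at PKM outside ALDOA, against a median of 0.58 over all promoters. At ALDOA the ratio was 0.43 and 0.26 at the first and second starts and 0.94 at the start printed above. These matches describe letters in the window and show no binding.

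TAF3 and RNAPII summits nearly coincided at 7 of the 8 genes, and the H3K4me3 summit lay downstream at all 8. Positions below run along the gene's strand, taken from RefSeq. The RNAPII summit lay 41 bp upstream of the TAF3 summit at ENO1, 37 bp upstream at ALDOA, 33 bp at LDHA, 28 bp at GAPDH, 20 bp at TPI1 and 5 bp at SLC2A1, and 3 bp downstream at PKM. At HK2 it lay 1029 bp downstream of the TAF3 summit. The median distance was 30.5 bp without regard to side. Over 11704 TAF3 peaks that overlap an RNAPII peak the median was 43 bp and the quartiles 15 and 176 bp. Distances of 41 bp or less are therefore common over the whole list, and their exact share was not counted.

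The H3K4me3 summit of the overlapping peak lay 111 bp downstream of the TAF3 summit at ENO1, 131 bp at PKM, 254 bp at ALDOA, 279 bp at TPI1, 400 bp at GAPDH, 464 bp at LDHA, 531 bp at HK2 and 789 bp at SLC2A1. The median was 339.5 bp, compared with 231 bp without regard to side over 11527 TAF3 peaks. Strand was not assigned to the other peaks, so the shared direction has no background here. The genes with the strongest TAF3 enrichment, PKM and ENO1, had the shortest distances. The TAF3 summit lay within 1.27 kb of the 5′ edge of the span at 7 genes, and 13.2 kb inside it at ALDOA.

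**Figure D2:**
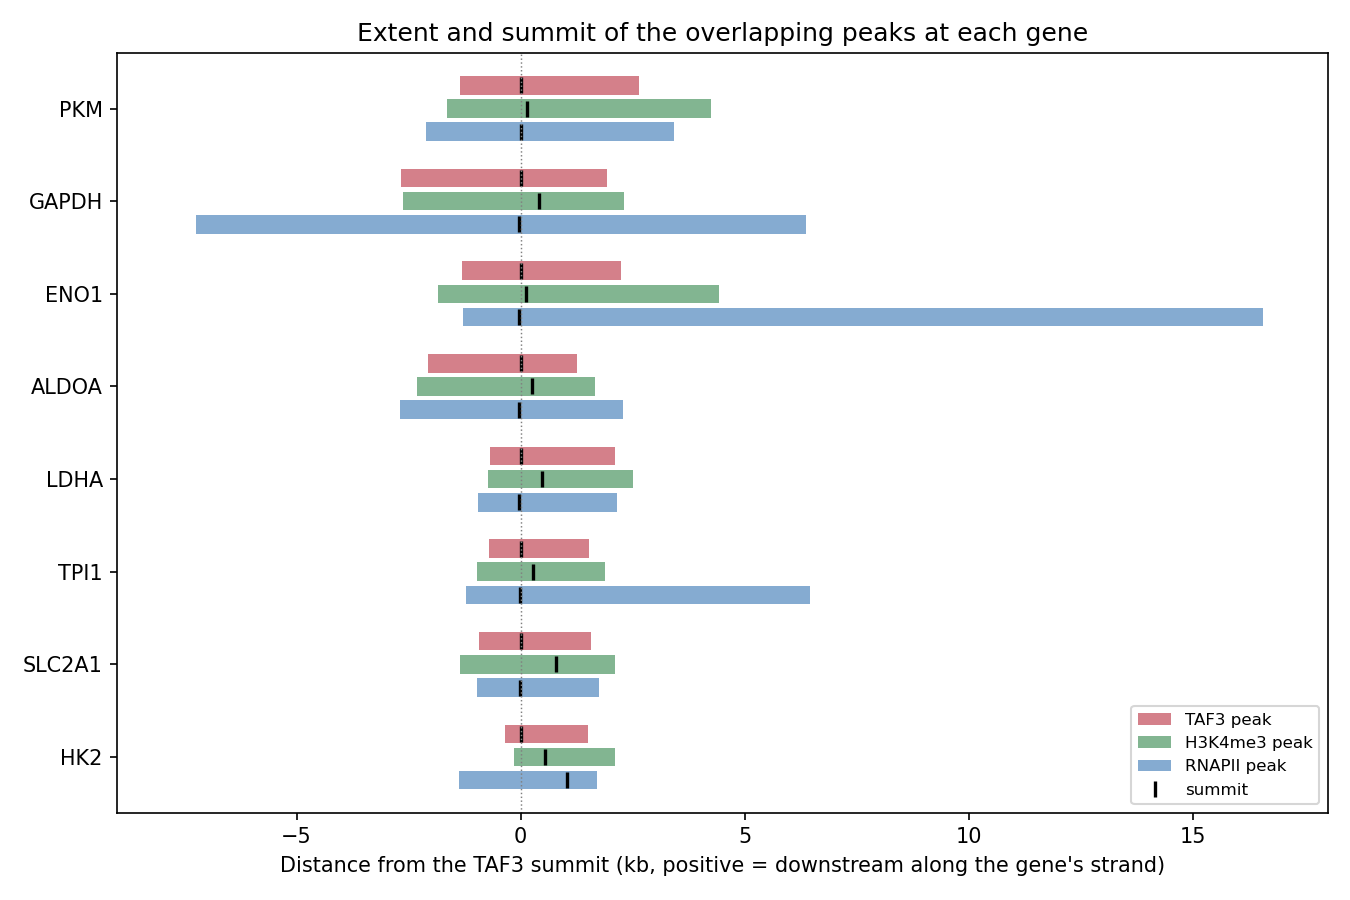
Extent (bars) and summit (black ticks) of the TAF3, H3K4me3 and RNAPII peaks that overlap at each gene, by distance in kb from the TAF3 summit along the gene's strand. RNAPII ticks fall on the TAF3 tick except at HK2, where the RNAPII summit lies 1029 bp downstream, and all H3K4me3 ticks lie to the right.

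The overlapping peaks were wider than the median of their list at every gene, but only narrowly for H3K4me3 at HK2 (2258 bp against 2240 bp). Each gene is again represented by a chosen peak, while the lists hold every peak. The TAF3 peak spanned 4583 bp at GAPDH, 3989 bp at PKM, 3552 bp at ENO1, 3315 bp at ALDOA, 2795 bp at LDHA, 2492 bp at SLC2A1, 2233 bp at TPI1 and 1845 bp at HK2, compared with a median of 1549 bp over the list. H3K4me3 reached 6259 bp at ENO1 and 5885 bp at PKM, so 2 of 8 exceeded 5000 bp against 0.958% of all H3K4me3 peaks. From the TAF3 summit H3K4me3 ran 4419 bp downstream and 1839 bp upstream at ENO1, and 4245 bp and 1639 bp at PKM. At GAPDH and ALDOA it reached further upstream, 2631 bp against 2294 bp downstream at GAPDH and 2310 bp against 1647 bp at ALDOA. The RNAPII peak at the TAF3 peak exceeded 5000 bp at 4 of 8 genes, against 6.46% of all RNAPII peaks, led by ENO1 with 17858 bp and GAPDH with 13619 bp. ALDOA held a second RNAPII peak of 5143 bp at its 3′ side.

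RNAPII filled some of these genes and was limited to parts of others. RNAPII peaks covered 100% of the span at GAPDH and at TPI1 and 99.8% at ENO1, followed by 85.4% at PKM, 47.8% at ALDOA, 31.8% at SLC2A1, 19.9% at LDHA and 6.37% at HK2. TAF3 covered between 3.07% at HK2 and 55.8% at TPI1, and H3K4me3 between 3.76% and 66.8% at the same genes. The spans run from 4 kb at TPI1 to 60 kb at HK2, and a promoter peak of given width fills more of a short gene. The part of gene length in these shares was not tested. RefSeq gives ALDOA a length of 6142 bp on GRCh38 against the 18 kb used here, so its share over the shorter form was not measured.

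**Figure D3:**
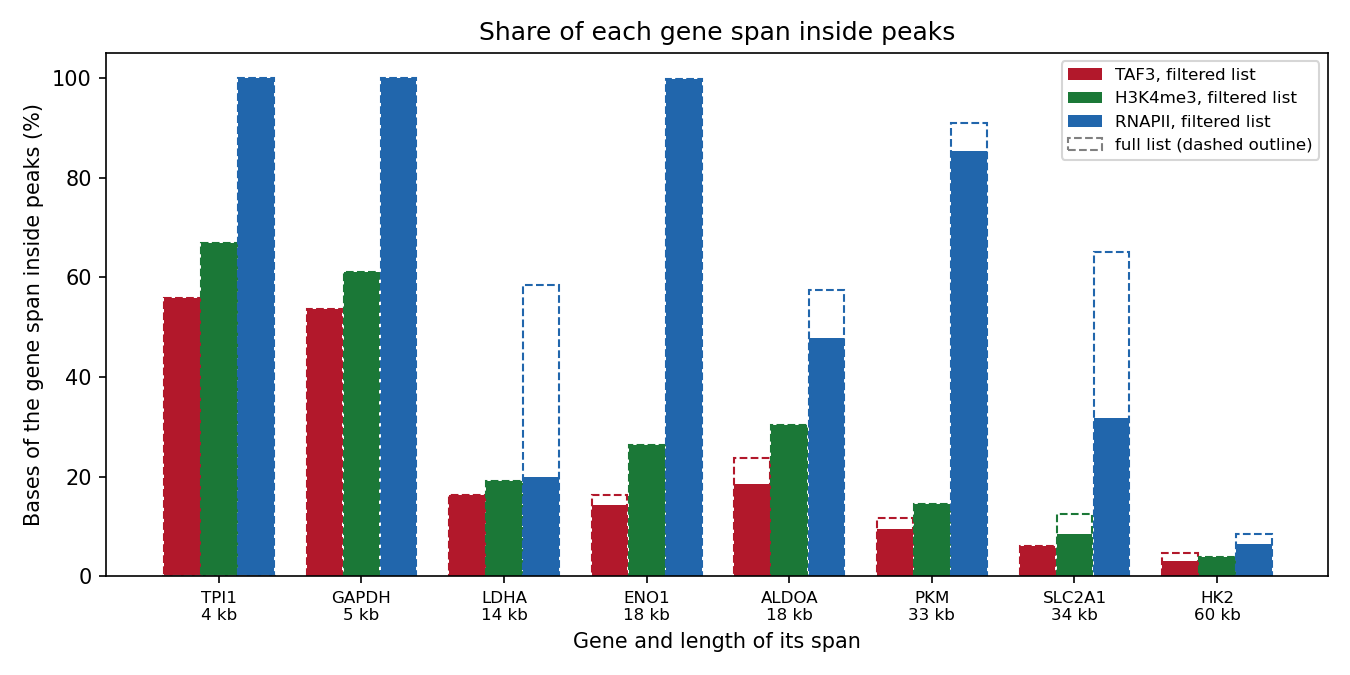
Percent of the bases of each gene span that lie inside TAF3, H3K4me3 and RNAPII peaks, with genes ordered by the length of their span. Filled bars use the filtered lists and dashed outlines the full lists. The RNAPII bar reaches 100% at TPI1 and GAPDH and 6.37% at HK2, and the full list raises LDHA to 58.5% and SLC2A1 to 65.0%.

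At PKM 9 further filtered RNAPII peaks followed the promoter peak. They ran from 13.0- to 66.5-fold and from 44.7 to 184 tags per kb, against 290.3 tags per kb in the promoter peak. ENO1 was instead covered almost whole by its promoter peak, with 194 tags per kb over all its width, and a further RNAPII peak of 40.9-fold with 1145 tags ran on past the 3′ edge. At LDHA the promoter peak held 326 tags per kb, and the only other filtered RNAPII peak lay at the 3′ edge, chr11:18429550-18430995, with 47.5-fold enrichment and 146 tags per kb. Along the gene and just past its 3′ edge 12 weaker RNAPII peaks of 9.35- to 25.4-fold fell below the filter, with 11 to 42 tags each. SLC2A1 likewise had 12 RNAPII peaks of 4.75- to 10.1-fold below the filter, all within the span, and filtered peaks of 15.1-fold and 9.02-fold inside the gene. The share of the span covered moved with the cutoff at LDHA, 19.9% with the filtered list and 58.5% with the full list, and at SLC2A1, 31.8% and 65.0%.

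RNAPII ran past the 3′ edge of most spans. Of the 5 kb that follow the span, RNAPII peaks covered 100% at ENO1, 95.6% at ALDOA, 64.5% at TPI1, 49.9% at SLC2A1, 42.6% at GAPDH, 42.4% at PKM, 19.9% at LDHA and 0.0% at HK2. RefSeq places another gene within 5 kb on that side at GAPDH (IFFO1), PKM (GRAMD2A), LDHA (LDHC) and TPI1 (LOC105369632). It lists overlapping genes at TPI1 (SPSB2), ALDOA (LOC112694756), ENO1 (MIR6728) and SLC2A1 (ATP6V0CP4). RNAPII there cannot be assigned to 1 gene, because the peaks carry no strand. At the 5′ side the GAPDH peak reached 7246 bp upstream of the TAF3 summit, where RefSeq lists GAPDH-DT and NCAPD2.

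**Figure D4:**
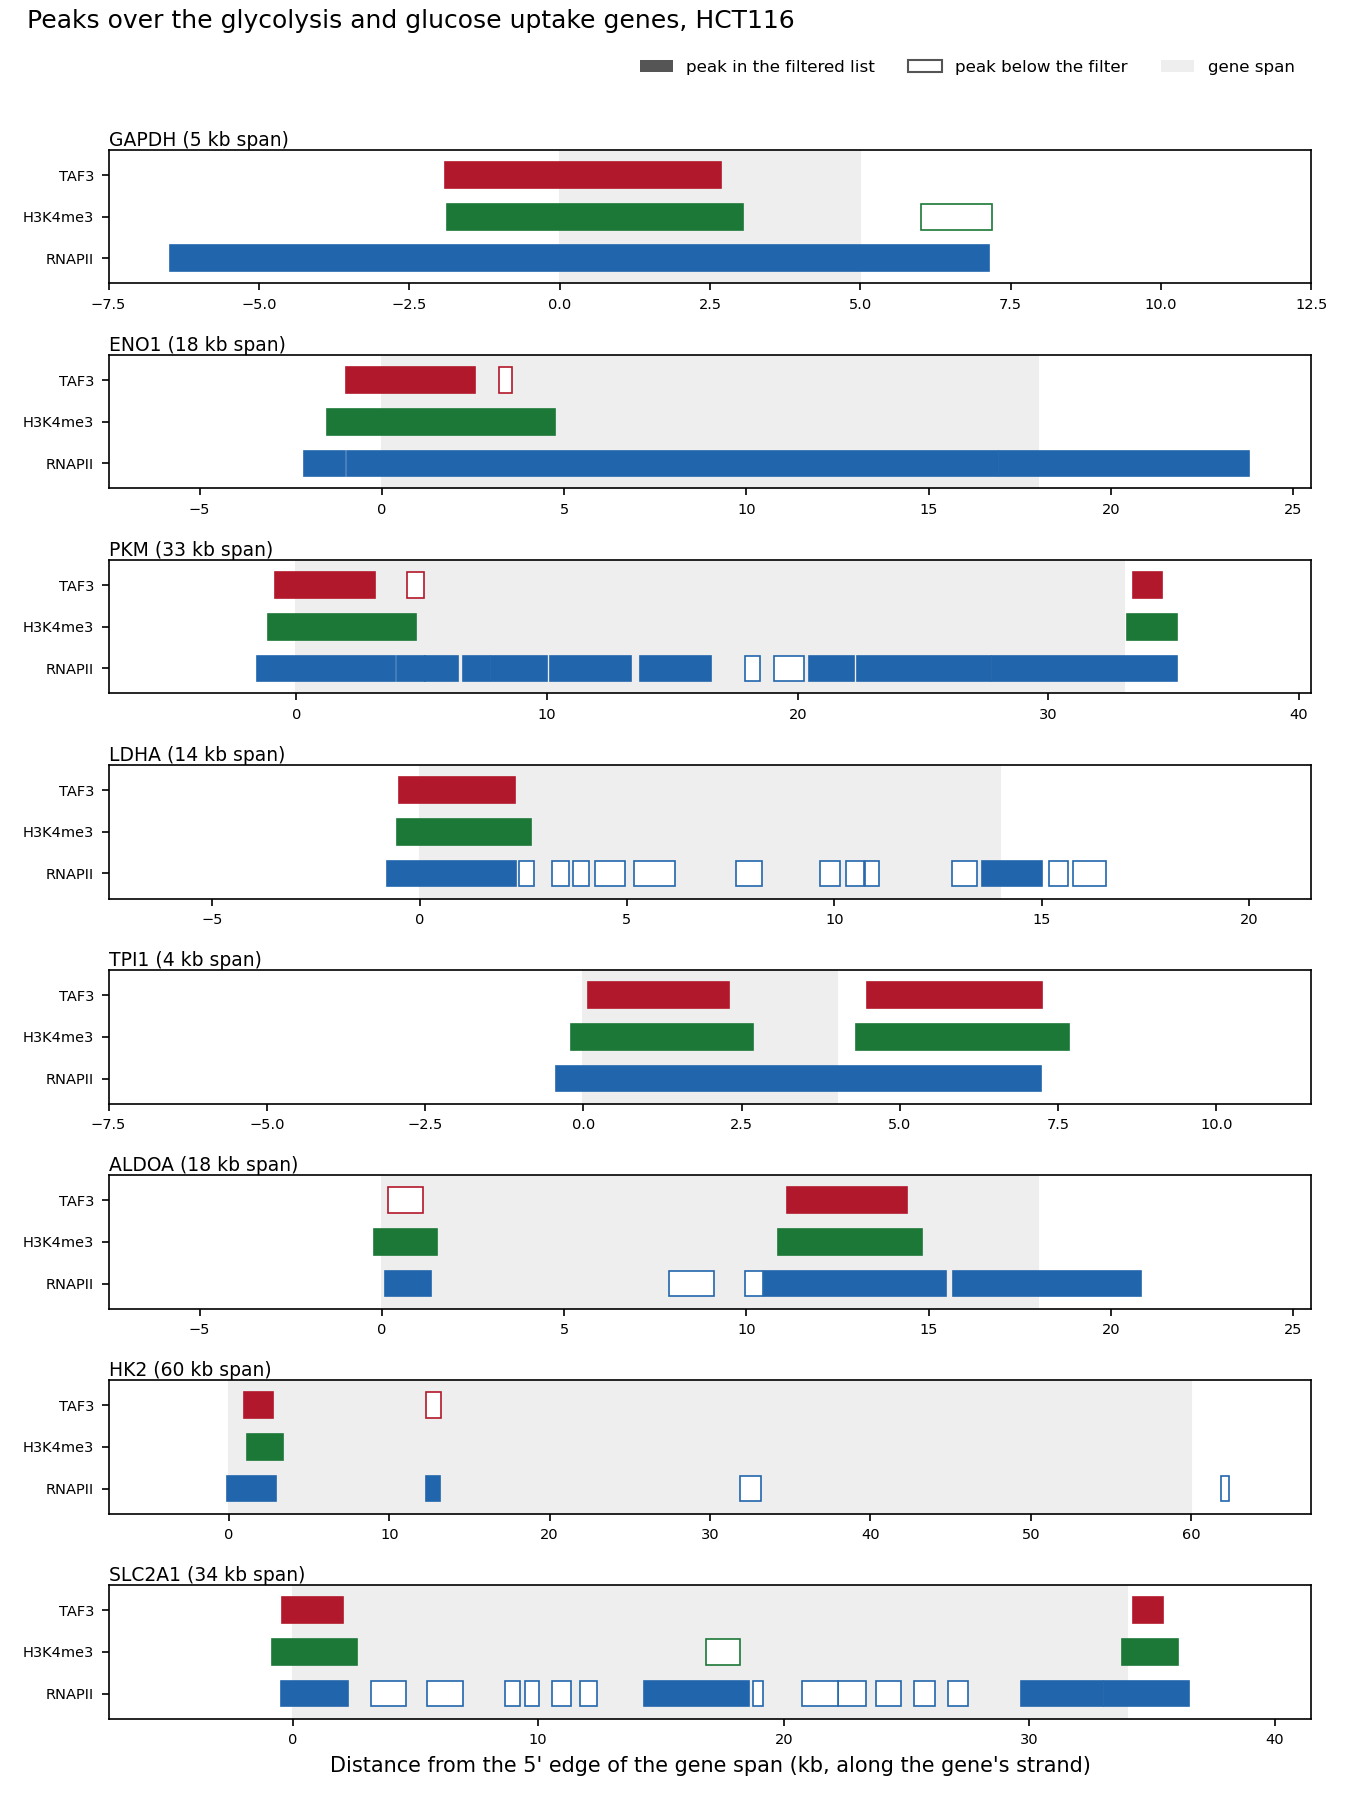
Peaks that overlap each gene window (span with 2 kb on each side), by distance in kb from the 5′ edge of the span along the gene's strand. Filled bars are peaks of the filtered lists, open bars peaks below the filter and the grey band is the span. Peaks are drawn to their full length, past the window where they leave it. RNAPII fills GAPDH, TPI1 and ENO1. At PKM, TPI1 and SLC2A1 all 3 signals appear again at the 3′ side, with the TAF3 peak outside the span.

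At PKM, TPI1 and SLC2A1 the 3 signals met a second time at the 3′ side. These TAF3 peaks lay past the 3′ edge of the span and entered only through the 2 kb added to it. Of all filtered TAF3 peaks 97.6% overlap both other signals, so such a meeting is usual for a TAF3 peak. The TAF3 peak there was 23.5-fold with 89 tags at PKM (chr15:72489455-72490632), 34.5-fold with 267 tags at TPI1 (chr12:6980472-6983246) and 38.7-fold with 175 tags at SLC2A1 (chr1:43389557-43390757). The matching H3K4me3 peaks were 112-fold, 132-fold and 90.4-fold. RNAPII was 63.2-fold at PKM and 114-fold at SLC2A1, and at TPI1 a single RNAPII peak spanned both places. On GRCh38, GRAMD2A neighbours PKM, SPSB2 overlaps TPI1 and the pseudogene ATP6V0CP4 overlaps SLC2A1. At SLC2A1 the 3′ RNAPII peak held more tags than the promoter peak, 786 against 474, and was also denser, at 228 against 174 tags per kb.

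ALDOA and HK2 each had a further place within the span. At the 5′ edge of the ALDOA span H3K4me3 was 157-fold with 594 tags (chr16:30063792-30065509) and RNAPII 53.1-fold with 142 tags, while TAF3 was 18.6-fold with 52 tags and a false discovery rate of 5.35%, just outside the filter. By fold enrichment this H3K4me3 peak exceeded the one at the main TAF3 peak (131-fold), although it held fewer tags, 594 against 1855. At HK2 an RNAPII peak of 58.5-fold and 162 tags had its summit 12.8 kb into the span (chr2:75072323-75073176), stronger in fold enrichment than the promoter peak (38.6-fold). TAF3 there was 9.18-fold with 50 tags, below the filter, and neither H3K4me3 list held a peak.

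Relative to H3K4me3, TAF3 was highest at PKM and ENO1 and lowest at HK2. With tags scaled to the kept tags of each library, TAF3 gave 34.6 tags for every 100 H3K4me3 tags at PKM (95% interval 32.1 to 37.3), 32.8 at ENO1 (30.1 to 35.8), 27.0 at GAPDH, 24.9 at ALDOA, 22.8 at TPI1, 22.4 at LDHA, 18.8 at SLC2A1 and 16.3 at HK2 (14.1 to 18.7), in peaks that overlap. The intervals of PKM and HK2 do not overlap, while those of HK2 and SLC2A1 (16.6 to 21.1) do. Over 11561 H3K4me3 peaks with TAF3 the quartiles were 13.9 and 25.4 and the median 18.5. Duplicate removal took 40.2% of the H3K4me3 tags and 14.2% of the TAF3 tags, and its part in these ratios was not tested.

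Relative to RNAPII, the order depended on peak width. Per 100 RNAPII tags of the overlapping peak TAF3 gave 70.8 at SLC2A1 and 61.5 at PKM, and 14.3 at TPI1, 21.2 at GAPDH and 21.3 at ENO1, where the RNAPII peak runs through the gene, compared with a median of 44.1 over 11546 RNAPII peaks with TAF3. Per kb of peak, ENO1 had the highest ratio of the list, 107 against a median of 51.1 over those peaks, and TPI1 the lowest, 49.0. At ENO1 the RNAPII tags are averaged over 17858 bp and the TAF3 tags over 3552 bp. The part of peak width in the ratio per kb was not tested. Both TPI1 ratios use only its stronger TAF3 peak. The RNAPII peak of TPI1 also covers a second TAF3 peak, of 267 tags, at the 3′ side.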

How the data were processed

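Per the submitters' processing notes, reads were handled with CASAVA 1.8.2 and MACS 1.4.2 on hg19. Settings of the aligner were not among the sources used. The authors called peaks per antibody against a shared input, per the file headers, keeping 1 tag per position at a p cutoff of 1e-05 (band width 300 bp, tag size 35 bp). The deposited tag count per peak is raw, the deposited fold enrichment is a ratio to local background, the deposited score is a scaled negative log10 of the p-value, and the false discovery rate was deposited as a percent. Peak positions and lengths are the authors' own. Depth after duplicate removal ranged from 12560129 to 17411155 tags per antibody.

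The members and lists were chosen with earlier results of these data known. For each gene and antibody the filtered peak of highest fold enrichment in the window was taken, with an overlap of at least 1 bp. All 8 genes are named, with 1 such peak each, and other peaks by count and range. Where the H3K4me3 or RNAPII peak so chosen lay apart from the TAF3 peak (ALDOA and HK2), the overlapping peak is given, a choice made after seeing the data. Strands, neighbours and promoters came from RefSeq on GRCh38, of which no coordinates were carried to hg19, so other genes of the pathway are not analysed here. Tables were computed in Python 3.11.15 with pandas 2.3.3 and numpy 2.4.6, intervals with scipy 1.17.1, and plots drawn with matplotlib 3.10.9. The overlap code passed 8 of 8 checks on simulated data and equalled bedtools 2.31.1 for 6 of 6 list pairs. Alternatives changed the list, the margin, the overlap, the chosen peak, the ranking and the scaling. With 1 library per antibody no leave-one-out was possible.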

Additional observations from a re-analysis of the deposited data

Results flagged for a closer look

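Peaks below the authors' filter, which the comparisons leave out, were present in the gene windows. The authors called them against input. TAF3 had 1 such peak at each of 4 genes, of 8.07-fold at ENO1, 8.59-fold at PKM, 18.57-fold at ALDOA and 9.18-fold at HK2, with 13, 31, 52 and 50 tags in that order. The ALDOA peak missed the filter by its false discovery rate of 5.35% alone and lies on an H3K4me3 peak of 157-fold. H3K4me3 had 1 of 8.91-fold at GAPDH and 1 of 7.06-fold at SLC2A1, with false discovery rates of 16.3% and 20.6%. RNAPII had 12 at LDHA, 12 at SLC2A1, 2 at PKM, 2 at ALDOA and 2 at HK2, with fold enrichments from 4.75 to 25.4. At LDHA and SLC2A1 most lie along the gene between the promoter and the 3′ edge.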

How the results depend on the processing

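Counts of genes with peaks stayed at 8 of 8 for every antibody with the full lists, no margin, a 5 kb margin or 50% of the peak inside the window. With the upper 50% of each list by fold enrichment TAF3 was at 7 genes and all 3 signals at 6, since ALDOA falls out for TAF3 and HK2 for RNAPII at its promoter. Of 67 summary values under alternatives 46 stayed and 21 moved, and of 376 values of single genes 242 stayed and 134 moved. Stayed did not mean equal, as the fall from 8 to 6 genes with all 3 signals was counted as stayed. TAF3 fold enrichments and ranks could not move where only the H3K4me3 or RNAPII peak was replaced by the overlapping one. Of the values of single genes, 23 of 24 moved when ranked by tags and 24 of 24 by tags per kb. With the full list 27 of 32 moved, among peaks with TAF3 15 of 16 and with no margin 0 of 80. Ranked by tags the median percentile (88.2 TAF3, 70.4 H3K4me3, 91.4 RNAPII as reported) came to 96.2, 92.2 and 98.2 in that order, ranked by tags per kb 83.8, 82.4 and 87.2, and in the full lists 92.3, 76.5 and 96.5. Among peaks with TAF3 (chosen after seeing the data) it was 63.8 for H3K4me3 and 81.4 for RNAPII. RNAPII covered a median of 66.6% of the span, 78.0% with the full list and 33.0% with the upper 50%. Choosing the peak of most tags gave an H3K4me3 percentile of 69.6 and a TAF3 to RNAPII distance of 35 bp. The TAF3 to H3K4me3 distance was then 339.5 bp, in place of 432 bp with the peaks of highest fold enrichment. The median of 432 bp includes ALDOA summits 12420 bp apart, and that of 35 bp includes SLC2A1 summits 34336 bp apart, at separate places. The peak overlapping TAF3 (chosen later), used for the distances above, gave 69.6 and 339.5 bp. For the peaks of highest fold enrichment, TAF3 tags per 100 H3K4me3 tags had a median of 24.9, which was 35.7 scaled to all tags and 29.1 per kb. For the overlapping peaks, whose ratios are given above, it was 23.9. TAF3 tags per 100 RNAPII tags had a median of 41.9, and 64.3 per kb, or 70.2 per kb for the overlapping peaks. The peak of highest fold enrichment lies apart from TAF3 at ALDOA for H3K4me3 and at HK2 for RNAPII. No paired analysis was possible because there is 1 library per antibody. The cause of these moves was not tested. Spans are rounded to 1 kb, and low tag counts limit what can be said of peaks below the filter.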

Other observations

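At HK2 the RNAPII summit lay 1029 bp downstream of the TAF3 summit, and the 2 RefSeq starts of HK2 lie 1043 bp apart on GRCh38. No other gene of the list had a TAF3 to RNAPII distance above 41 bp at its main peak. LDHA, TPI1 and ALDOA also have more than 1 start. Neighbouring starts lie 1788 bp apart at LDHA, 574 bp at TPI1, and 218 and 1263 bp at ALDOA. No start was placed relative to a peak, and a link between starts and summit distances was not tested.

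At ALDOA, fold enrichment and tags gave different ranks for each antibody. By fold enrichment the main peak stood above 39.0% of the TAF3 list, 52.9% of the H3K4me3 list and 69.7% of the RNAPII list, and by tags above 98.0%, 98.2% and 98.3%. All 3 fold enrichments use the same input library, whose tags are not analysed here.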
